A study of Homo sapiens with 2 samples.

Results

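Fibronectin and 39 other genes of the extracellular matrix were followed in MCF-10A cells, an established, non-tumorigenic line of human mammary epithelial cells. The genes were chosen by name as matrix glycoproteins, proteoglycans, fibrillins, latent TGF-beta binding proteins and crosslinking enzymes, and 36 of the 40 were measured, among 14812 named genes in all. SPARC, POSTN, TGFBI and SPOCK1 had no feature annotated to their symbol alone and were not analysed here. Features annotated to more than 1 symbol were set aside, so the array may still hold probes for these genes. RNA came from 1 sample of cells stably expressing an EGFP vector and from 1 sample stably expressing EGFP-ARHGAP4, and each was hybridised to 1 Affymetrix whole-transcript array. ARHGAP4 is a GTPase-activating protein, and both samples carry EGFP. The comparison asks how the RNA of each gene differs when the fusion protein is present. The labels do not say whether a line is a clone or a pool, which promoter drives expression, or how much protein was made.

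With 1 array per group there is no replicate, and no p-value, SD or standard error can be given for any gene. Each value is a deposited log2 expression value, and each difference is EGFP-ARHGAP4 minus EGFP vector on that log2 scale, so that a difference of 1 is 2-fold. A difference of 0.5 (1.41-fold) was used to count genes as higher or lower. A value was called above the level mark when it reached 4.02, the median of all gene values in the 2 arrays. Levels are not set against each other between genes, since probes differ in their response. The arrays read bulk RNA, so fewer cells of a kind and less RNA per cell cannot be told apart.

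The array label was checked on the targeted gene and on cell type markers. ARHGAP4 had a value of 4.49 with the EGFP vector and 6.68 with EGFP-ARHGAP4, a difference of 2.19. Of 11 measured mammary epithelial markers, 10 lay above the level mark in both arrays, KRT19 being the exception. Some of these markers differed between the arrays. KRT14, a keratin of basal cells, was at 9.21 and 6.96, a difference of -2.25, larger in size than that of any matrix gene followed here. The adhesion gene EPCAM was at 6.58 and 7.79, and the desmosomal cadherin gene DSG3 differed by 0.71. Of 12 measured fibroblast markers only PDPN lay above the mark in both arrays, at 6.02 and 4.85, and the matrix proteoglycan genes DCN and LUM, which are on that list too, stood between 1.73 and 2.05. The fibroblast markers as a whole ranged from 1.75 to 6.02 in the EGFP vector array and from 1.73 to 4.88 in the EGFP-ARHGAP4 array, and S100A4 differed most, at 3.56 and 4.88. Above the mark in both arrays were 1 of 8 endothelial, 3 of 6 immune and 1 of 7 adipocyte markers, where KDR, at 3.36 and 5.63, and LAPTM5, at 4.45 and 6.50, differed most in the first 2 lists. The part of other cell types in the differences below was not tested.

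The extracellular matrix of epithelial cells has a thin basement membrane of laminins, collagens, nidogens and heparan sulfate proteoglycans, and an interstitial meshwork that includes fibronectin, fibrillin microfibrils and small proteoglycans. Cells pull soluble fibronectin into fibrils through integrins and actomyosin tension, with syndecans as co-receptors. Latent TGF-beta binding proteins sit on this meshwork, and most of them hold the growth factor in an inactive store. Lysyl oxidases stiffen the meshwork by crosslinking collagen and elastin.

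Among the 36 measured matrix genes, 8 were higher by at least 0.5 in the EGFP-ARHGAP4 array and 1 was lower by that much. The genes higher were FN1, LTBP2, THBS2, BGN, LTBP3, SDC4, FBLN2 and HSPG2, and the gene lower was LOX. The 8 genes make up 22.2% of the measured members, against 4.25% of all 14812 genes that were higher by 0.5, and the 1 lower gene makes up 2.78%, against 6.47% of all genes. The members and the threshold were chosen with earlier results of these data known, so these shares are a description and not a test. FN1 alone differed by 1 or more, a size reached upwards by 0.581% of all genes, and no member was lower by 1, against 0.486% of all genes. The median difference was 0.14 for the members and -0.03 for all genes as deposited, and the former was 0.24 both after quantile normalization and after removal of the level trend. The median of all genes was then -0.003 and -0.009. Of the members 22 (61.1%) were above 0, 13 were below and 1 was equal, while 41.6% of all genes were above 0. The count at 0.5 rests on values close to that size, since with a threshold of 0.6 only 3 members, FN1, LTBP2 and THBS2, were counted as higher.

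**Figure D1:**
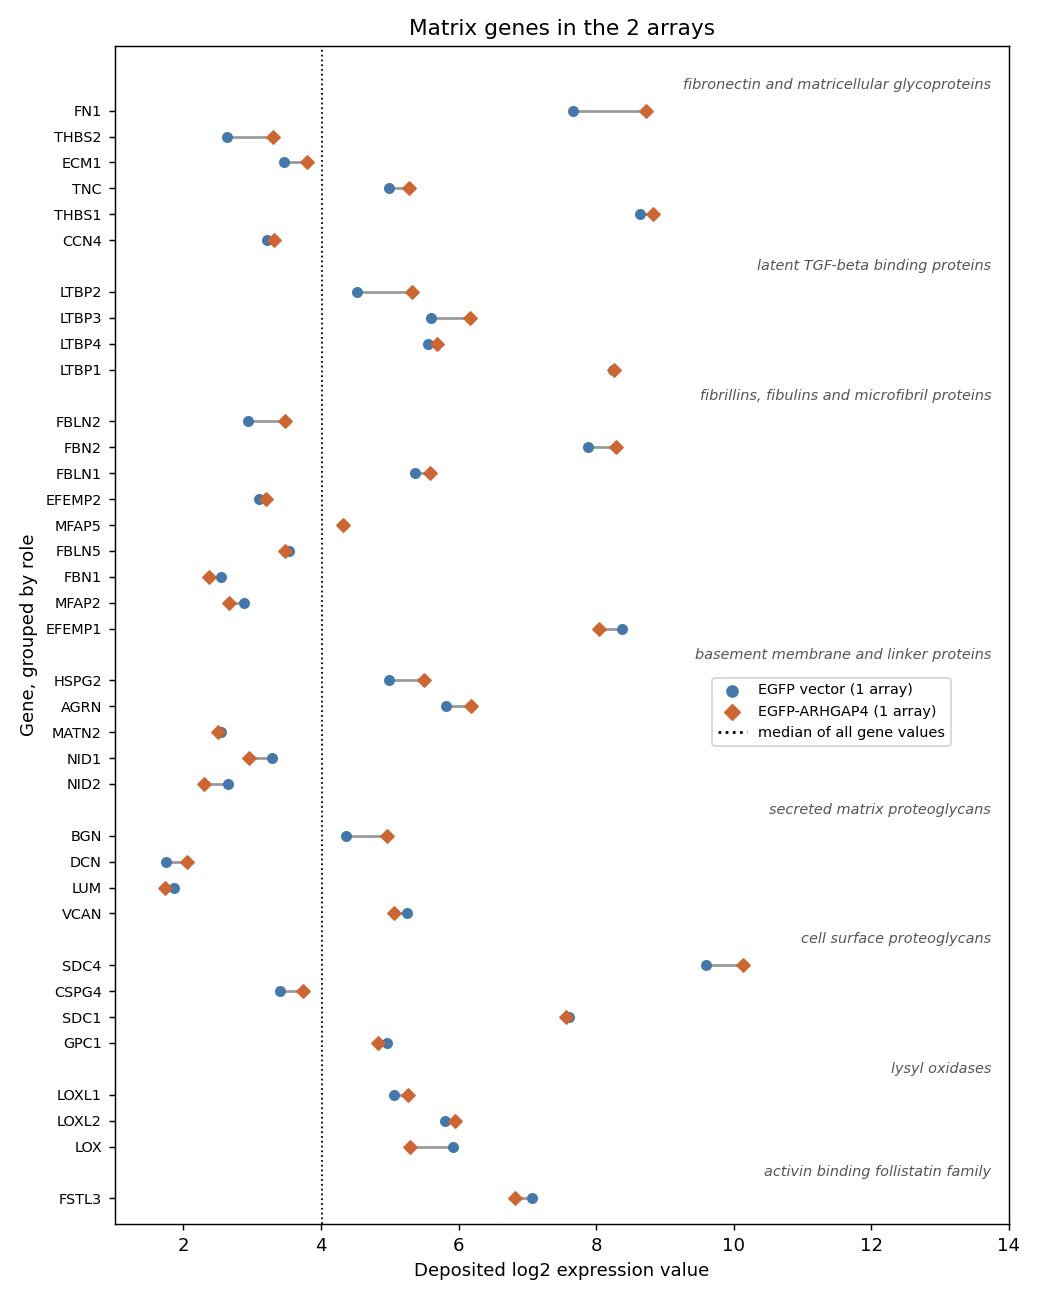
Deposited log2 expression value (horizontal axis) of each of the 36 measured matrix genes in the EGFP vector array (circles) and the EGFP-ARHGAP4 array (diamonds), grouped by role and joined by a grey line; there is 1 array per group and so no error bar. The longest line is that of FN1, from 7.66 to 8.72, and LOX has the longest line running to lower values, from 5.93 to 5.30; the dotted line marks 4.02.

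No member lay above the level mark in one array and below it in the other, since 22 stood above it in both arrays and 14 below it in both. The 22 had a median difference of 0.19, with 6 higher by 0.5 and LOX lower, while the 7127 genes of all kinds above the mark in both arrays had a median of -0.10. Of those 7127 genes, 4.1% were higher by 0.5 and 8.95% lower. The 14 members below the mark had a median of 0.02, and THBS2 and FBLN2 are the ones among them that reached 0.5. Differences near background are compressed, so the folds of these 14 genes are approximate.

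**Figure D2:**
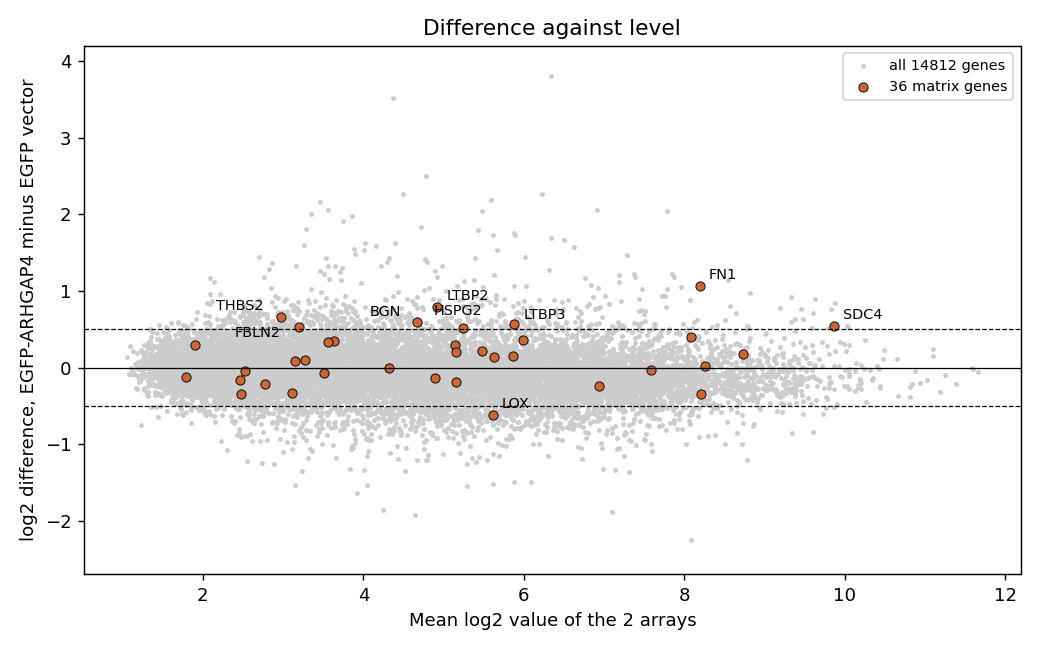
Difference in log2 value, EGFP-ARHGAP4 minus EGFP vector (vertical axis), against the mean log2 value of the 2 arrays (horizontal axis) for all 14812 genes (grey) and the 36 matrix genes (orange); dashed lines mark 0.5 either way. FN1, at 1.06, and SDC4, at 0.54, lie towards the right, among genes of high level, and the named genes are those past the dashed lines.

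Fibronectin, the dimeric glycoprotein that seeds much of the interstitial matrix, had the highest difference of the members. FN1 had a value of 7.66 with the EGFP vector and 8.72 with EGFP-ARHGAP4, a difference of 1.06 or 2.09-fold, and only 0.844% of all genes had a larger difference in either direction. The other 5 measured genes of its group, the matricellular and associated glycoproteins, were above 0 as well, and the median of the 6 was 0.32. Of all genes 41.6% were above 0. Among 46 other matrix glycoproteins, read from a related list below, 27 were above 0 and 17 below. THBS2, an antiangiogenic thrombospondin, was at 2.64 and 3.30, a difference of 0.66 that lies below the level mark in both arrays. Its better known relative THBS1, which can activate latent TGF-beta, was at 8.64 and 8.82, a difference of 0.18. TNC, tenascin-C, a modulator of adhesion to fibronectin, was at 4.99 and 5.28. ECM1, which binds perlecan, was at 3.46 and 3.80, and CCN4, a matricellular protein induced by Wnt signals, at 3.22 and 3.32. FN1 and THBS2 thus passed 0.5 and the remaining 4 did not.

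Shared control of the members that were higher was not tested. The promoter letters of those above the level mark are shown. They come from RefSeq (GRCh38.p14) and give the 250 bases before the annotated start of each gene that was higher by 0.5, lay above the level mark in both arrays and has a single window in the table. LTBP3 has more than 1 window there and is not shown. Capitals mark matches on either strand, so to these letters or their reverse complement. The letters TGACGTCA were searched for a cyclic AMP response element (CRE) and TGACTCA for an AP-1 site. A CCAAT box was searched by the letters in its name, a GC box by GGGCGG and a TATA box by TATAA. Neighbouring GC boxes may overlap. The windows lie at chr2:215436069-215436318 (minus strand) for FN1, chr14:74612238-74612487 (minus) for LTBP2, chrX:153494730-153494979 (plus) for BGN, chr1:21937311-21937560 (minus) for HSPG2 and chr20:45348425-45348674 (minus) for SDC4.
FN1: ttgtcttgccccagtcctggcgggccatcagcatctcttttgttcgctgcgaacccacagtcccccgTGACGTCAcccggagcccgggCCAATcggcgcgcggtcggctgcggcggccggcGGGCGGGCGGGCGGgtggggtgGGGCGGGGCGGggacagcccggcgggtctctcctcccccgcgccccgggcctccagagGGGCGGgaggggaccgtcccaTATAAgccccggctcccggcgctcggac
LTBP2: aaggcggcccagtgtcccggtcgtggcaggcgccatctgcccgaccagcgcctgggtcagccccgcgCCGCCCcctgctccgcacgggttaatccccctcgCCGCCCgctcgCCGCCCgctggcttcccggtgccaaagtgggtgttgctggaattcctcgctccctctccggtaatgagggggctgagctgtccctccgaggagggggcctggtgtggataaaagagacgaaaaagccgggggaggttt
BGN: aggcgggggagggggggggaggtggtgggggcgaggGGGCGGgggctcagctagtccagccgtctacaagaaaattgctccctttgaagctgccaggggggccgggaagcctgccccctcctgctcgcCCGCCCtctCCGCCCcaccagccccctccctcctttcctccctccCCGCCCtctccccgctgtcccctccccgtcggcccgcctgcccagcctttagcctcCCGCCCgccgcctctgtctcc
HSPG2: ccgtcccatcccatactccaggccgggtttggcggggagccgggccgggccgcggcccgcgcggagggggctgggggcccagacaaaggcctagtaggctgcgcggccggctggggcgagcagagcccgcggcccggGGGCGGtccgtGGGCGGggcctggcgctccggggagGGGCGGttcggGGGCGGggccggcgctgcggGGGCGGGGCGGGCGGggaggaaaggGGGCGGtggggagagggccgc
SDC4: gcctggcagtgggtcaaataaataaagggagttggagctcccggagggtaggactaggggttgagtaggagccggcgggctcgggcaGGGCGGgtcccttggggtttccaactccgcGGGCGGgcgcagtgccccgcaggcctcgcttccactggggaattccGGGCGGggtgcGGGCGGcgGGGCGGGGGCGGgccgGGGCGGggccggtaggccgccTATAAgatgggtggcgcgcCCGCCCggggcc
The FN1 window holds 1 CRE, which begins 183 bases before the start, 1 CCAAT box, which begins 162 bases before it, 6 GC boxes and 1 TATA box 28 bases before the start. The CRE and the CCAAT box are not in the windows of LTBP2, BGN, HSPG2 or SDC4. GC boxes are in all 5 windows, with 3 in LTBP2, 5 in BGN, 8 in HSPG2 and 8 in SDC4, and SDC4 also has a TATA box. Over the 38 windows found for 28 of the measured members, a CRE was in 2 (5.26%), those of FN1 and LTBP1, against 1.65% of all 35116 windows in the table, which covers coding and non-coding genes. LTBP1, the other member with a CRE, differed by 0.02. An AP-1 site was in 5.26% of member windows and 4.2% of all, a CCAAT box in 23.7% and 32%, a GC box in 73.7% and 42.6%, and a TATA box in 26.3% and 18.9%. These are matches of letters and not measured binding sites.

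All 4 latent TGF-beta binding proteins were measured above the level mark in both arrays, and their values differed within the family. LTBP2, the family member that associates with fibrillin microfibrils but does not bind latent TGF-beta, was at 4.53 and 5.32, a difference of 0.79 or 1.73-fold. Its value is the mean of 2 features, and both were higher in the EGFP-ARHGAP4 array, by 0.95 and by 0.63. The feature with the larger difference was at 3.24 and 4.19, below the level mark in the EGFP vector array, and the other was at 5.81 and 6.44. LTBP3, a carrier of latent TGF-beta known from skeletal development, was at 5.60 and 6.16, a difference of 0.56. LTBP4, a partner of latent TGF-beta and of elastic fibres, was at 5.55 and 5.69, a difference of 0.14. LTBP1, the main carrier of latent TGF-beta in many tissues, was at 8.25 and 8.26, a difference of 0.02. The family median was 0.35. The TGF-beta ligand genes themselves were not analysed here.

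The fibrillins, fibulins and microfibril-associated genes showed no common direction, with 4 above 0, 4 below, 1 equal and a median of 0.00 over 9 genes. FBLN2, a fibulin that bridges basement membrane and elastic fibre proteins, was at 2.94 and 3.47, a difference of 0.54 below the level mark. FBN2, the fibrillin best known from developing tissue, was at 7.88 and 8.28, a difference of 0.40. FBLN1, a fibulin that binds fibronectin, was at 5.37 and 5.59. EFEMP1, a fibulin of basement membrane and eye tissue, went the other way at 8.38 and 8.04, a difference of -0.34. FBN1, the main fibrillin of adult microfibrils, was at 2.54 and 2.37 and MFAP2, a microfibril-associated glycoprotein, at 2.88 and 2.66. EFEMP2 and FBLN5, fibulins needed for elastic fibre assembly, differed by 0.09 and -0.07. The second microfibril-associated glycoprotein gene, MFAP5, had 4.32 in both arrays to the last digit, as did 3106 of the 44629 features of the table, and nothing is read from its difference of 0.

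In the basement membrane group the heparan sulfate proteoglycans and the nidogens stood on opposite sides of 0. HSPG2, which encodes perlecan, was at 4.98 and 5.50, a difference of 0.52. AGRN, which encodes agrin, was at 5.81 and 6.17, a difference of 0.36. The nidogens link laminin to collagen networks, and NID1 was at 3.29 and 2.95 while NID2 was at 2.65 and 2.30, both differences of -0.34 below the level mark. MATN2, a matrilin that acts as an adaptor between matrix proteins, was at 2.55 and 2.50. HSPG2 alone of the 5 reached 0.5, and their median was -0.05.

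The secreted and the cell surface proteoglycans each held 1 gene that reached 0.5. BGN, the small leucine-rich proteoglycan biglycan, was at 4.37 and 4.97, a difference of 0.60 or 1.51-fold. Its closest relative DCN, decorin, was at 1.75 and 2.05 and LUM, lumican, at 1.86 and 1.73. VCAN, the large hyaluronan-binding proteoglycan versican, was at 5.25 and 5.06, and its 2 features differed by -0.14 and -0.23. The first of them was at 7.68 and 7.54 and the second, below the level mark, at 2.82 and 2.59. SDC4, the syndecan that clusters in focal adhesions as a co-receptor for fibronectin, was at 9.59 and 10.13, a difference of 0.54 or 1.45-fold. SDC1, the main syndecan of epithelia, was at 7.60 and 7.56, a difference of -0.04 that turned positive after quantile normalization and after removal of the level trend. CSPG4, also known as NG2, was at 3.40 and 3.73. GPC1, a glypican held at the membrane by a lipid anchor, was at 4.97 and 4.82, but its 2 features disagreed in sign, at 0.06 and -0.34, and the feature with the higher level gave the positive one.

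The 3 lysyl oxidases among the members split as well. LOX, the founding enzyme of the family, was at 5.93 and 5.30, a difference of -0.63, which is 1.54-fold lower with EGFP-ARHGAP4 and the lowest difference of the 36 members. LOXL1, an oxidase needed for elastic fibre upkeep, was at 5.05 and 5.26, a difference of 0.21. LOXL2, which crosslinks basement membrane collagen, was at 5.80 and 5.94, a difference of 0.15. The family genes LOXL3 and LOXL4 are not members and were read from a related list. LOXL3 was at 4.48 and 4.06, a difference of -0.43, and LOXL4, below the level mark, was at 3.57 and 3.61. FSTL3, a secreted follistatin family protein that binds activins and myostatin, was at 7.06 and 6.82, a difference of -0.24.

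As a measure of how finely a difference can be read, the difference between the arrays was compared over features of the same gene. Its pooled SD within a gene was 0.21 over 336 genes with several features. These genes reached the level mark in at least 1 array, so members below it in both arrays lie outside them. The SD describes features on the same 2 arrays and not separate cultures. Of the 36 members, 14 differed by less than that, and 33 of the 36 rest on a single feature.

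To show how the members stood among the genes next to them, each was set beside up to 10 measured genes on either side that reached the level mark in at least 1 array, in the order of the RefSeq gene table. The 36 members lie on 15 chromosomes. The median difference of the neighbours ranged from -0.40 to 0.09 over the 36 members. The members described next were picked because they differed by at least 0.5. Only 4.25% of all genes were higher by that much, so a place above most neighbours largely follows from that choice. Members under 0.5 could stand there too, as FBN2 and DCN were above all 20 neighbours and AGRN above all 19. FN1 on chromosome 2 was above all 20 of its neighbours, whose median was -0.11 and whose highest was 0.30. The neighbouring genes named here were picked after their values were seen. LTBP2 on chromosome 14 was above all 20 of its own, with a median of -0.08, and THBS2 on chromosome 6 above all 17, with a median of -0.13. LTBP3 on chromosome 11 and FBLN2 on chromosome 3 were each above 19 of 20, and HSPG2 on chromosome 1 and SDC4 on chromosome 20 above 18 of 20. The neighbours of SDC4 that were above it were SLPI and WFDC2, both genes of secreted WAP domain proteins. BGN on the X chromosome was above 17 of 20, and the 3 neighbours above it were GPR50, ARHGAP4 itself and DNASE1L1, at 1.44, 2.19 and 0.71. The value of ARHGAP4 can include RNA of the introduced EGFP-ARHGAP4, so it is not read as a value of this chromosome region. The neighbours of LOX on chromosome 5 had a median of -0.28, 4 of the 20 were lower by 0.5 and 2 were below LOX. Another 1 of the 20, ARL14EPL, was higher by 0.5, at 1.81, and the member FBN2, also a neighbour, was at 0.40. Genes above the level mark in both arrays had a median of -0.10, and 8.95% of them were lower by 0.5, against 6.47% of all genes.

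**Figure D3:**
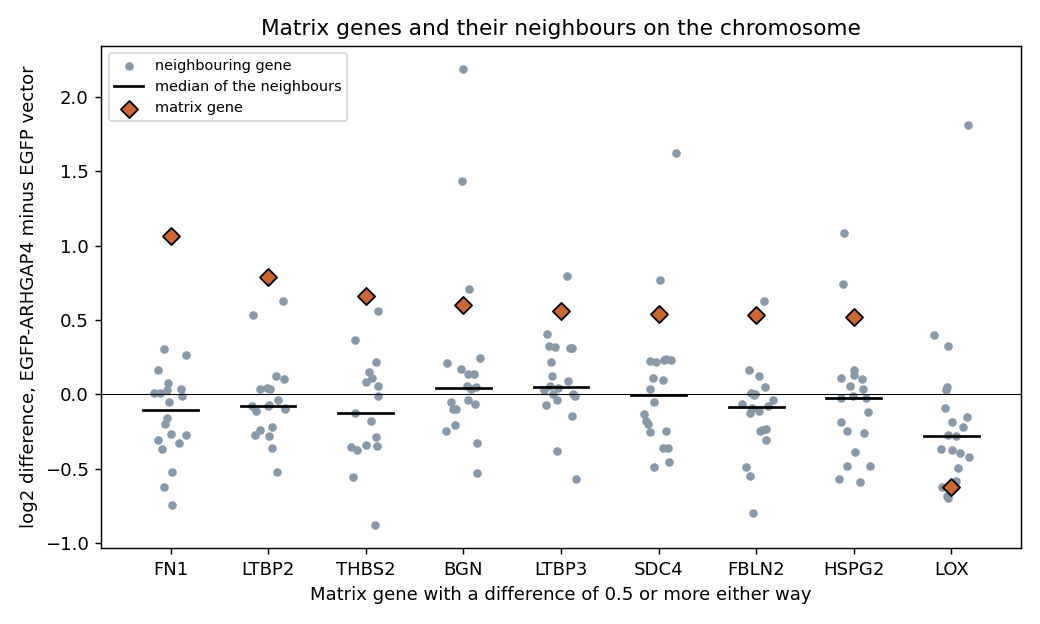
Difference in log2 value, EGFP-ARHGAP4 minus EGFP vector (vertical axis), of the 9 matrix genes past 0.5 either way (diamonds) and of their neighbouring genes on the chromosome (grey points, spread sideways for clarity; black bar, their median). FN1, LTBP2 and THBS2 lie above every neighbour shown, while LOX, at -0.63, lies in a column whose median is -0.28.

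Other genes of matrix biology were read from 6 further lists, 142 measured genes in all, whose joint median was 0.00. Of these, 12 (8.45%) were higher and 11 (7.75%) lower by 0.5, against 4.25% and 6.47% of all genes. Among 46 other matrix glycoproteins, 7 (15.2%) were higher and 2 (4.35%) lower by 0.5. CCN3, a matricellular relative of CCN4, was at 2.46 and 4.07, PXDN, a peroxidase that crosslinks collagen of the basement membrane, at 4.32 and 5.50, and MFGE8, a secreted integrin ligand of milk fat globules, at 4.97 and 6.02. FRAS1, a protein of the epidermal basement membrane, was at 5.51 and 4.82. Among 27 other proteoglycans and link proteins only SRGN (3.7% of them), the granule proteoglycan serglycin, reached 0.5, at 2.61 and 6.13, and none was lower by that much.

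The enzymes that act on matrix had medians just below 0. Of 23 listed genes of crosslinking and collagen processing 13 were measured, and the genes of the PLOD and P4HA families were not among them. Of the 13 none was higher and 2 (15.4%) were lower by 0.5. They were TLL1, a tolloid-like protease, at 4.69 and 4.02, and PCOLCE2, an enhancer of procollagen processing, at 4.12 and 3.48. Of 41 glycosaminoglycan enzymes 4 (9.76%) were higher and 5 (12.2%) lower. CHST15, a chondroitin sulfotransferase, was at 5.35 and 6.41, and SULF2, which trims sulfate from extracellular heparan sulfate, at 4.68 and 5.31. HPSE, which cleaves heparan sulfate, was at 5.03 and 3.83, and HS3ST3A1, which adds a sulfate to heparan sulfate chains, at 7.22 and 6.37. None of 11 measured non-integrin matrix receptors reached 0.5. The last list held follistatins, TGF-beta and activin-type ligands and activin receptors, and 4 of its 13 genes were analysed here. None of the 4 was higher and 2 (50%) were lower by 0.5, against 6.47% of all genes. FSTL1, which shares a follistatin domain with FSTL3, was at 6.03 and 4.79, and GDF11, a growth factor that FSTL3 can bind, at 4.50 and 3.91. The remaining genes of the 4, FST and MSTN, differed by -0.10 and -0.05.

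**Figure D4:**
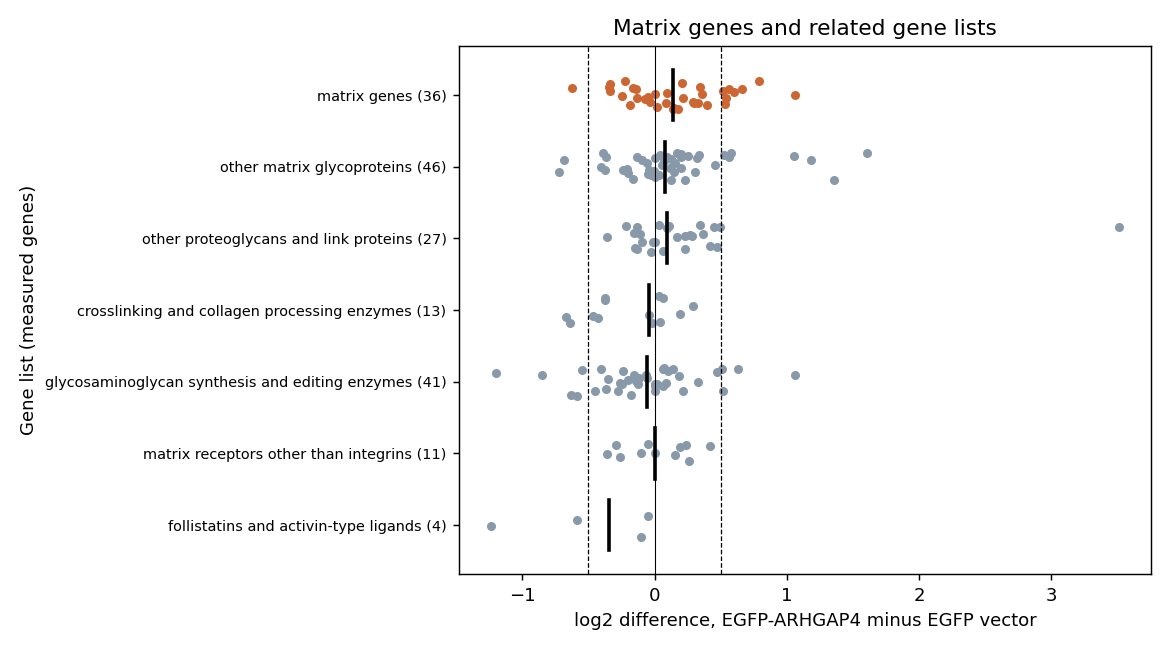
Difference in log2 value, EGFP-ARHGAP4 minus EGFP vector (horizontal axis), for each measured gene of the matrix set (orange) and of 6 related lists (grey), with the number of genes in parentheses and a black bar at the median. The matrix genes have a median of 0.14 and the glycosaminoglycan enzymes one of -0.06; the point farthest to the right is SRGN, at 3.51.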

How the data were processed

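Total RNA of both samples was amplified to sense cDNA, labelled with biotin and hybridised to Affymetrix whole-transcript arrays, per the labels' protocols. The authors deposited 1 log2 value per feature and array for 44629 features. For the summarisation, the normalization and the genome build, tools and settings were not given in the sources used here. Base 2 was inferred for the logarithm, because the highest value of 12.8 lies above 11.1, the largest natural log that a 16-bit reading can give. The columns' medians are equal to 2 decimals at 2.88, so differences are relative to the bulk of features.

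Features that the platform annotation gave to more than 1 symbol were set aside. Annotation of the other features was updated through Entrez identifiers to RefSeq symbols, which named 15835 features. Features of 1 symbol were averaged to 14812 genes. Samples were grouped by the genotype in their labels, and with 1 array per group no test was run. The precision is limited by the number of arrays. The members, lists and thresholds were chosen with earlier results of these data known. By the naming rule every measured member is named. From each related list it names up to 4 genes that differed most, by at least 0.5, with 1 value at the level mark. FST, MSTN, LOXL3 and LOXL4 are named besides. Alternatives were quantile normalization, centring, loess (span 0.3), the feature with the highest level, the level mark as a filter and thresholds of 0.4 and 0.6. The tools were matplotlib 3.10.9, statsmodels 0.14.6, numpy 2.4.6, pandas 2.3.3 and Python 3.11.15, and the calculations were tested on simulated data.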

Additional observations from a re-analysis of the deposited data

How the results depend on the processing

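The 8 members higher by 0.5 were higher by 0.5 under quantile normalization, centring and the choice of the highest feature, and under loess as well, where FBN2 joined them to make 9. LOX was the 1 gene lower by 0.5 under these 4 settings. Centring left the member values as they were, so it adds no check. The choice of feature can alter only the 3 members with several features, and of the 8 only LTBP2 is one of them. At a threshold of 0.6 the 8 became 3, and at 0.4 they became 9; among genes at the level mark they were 6. The difference in FN1 was 1.06 as deposited, 1.18 after quantile normalization and 1.195 after loess. The median of the members was 0.14 as deposited, 0.24 after quantile normalization and 0.24 after loess, while that of all genes moved from -0.03 to -0.003 and -0.009. The share of all genes higher by 0.5 was 5.27% after quantile normalization and 5.26% after loess, and that lower was 4.84% and 4.8%. Under the scalings SDC1 alone changed sign, and under the choice of feature GPC1 alone; neither reached 0.5. Over the members other than FN1 and the named related genes, 192 values were recomputed, and no difference of 0.5 or more changed sign. Many of the 192 belong to genes that differed by less than 0.5 and could not count as reversed. No paired analysis was possible because each group has 1 array. Without replicates none of these settings bears on variation between cultures.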
